A study of Mus musculus with 1479 samples.

Results

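Bone morphogenetic proteins (BMPs) are secreted dimers of the TGF-beta superfamily. They bind pairs of type I and type II serine/threonine kinase receptors, whose signal passes through Smad1, Smad5 and Smad8 to target genes such as the Id genes, while secreted antagonists such as noggin capture the ligands outside the cell. In organs lined by an epithelium, such as the gut, the mesenchyme beneath it is a known source of these ligands. Bmp3 and Gdf10, a closely related pair, differ from the rest of the family in that Bmp3 is known as an antagonist of BMP signalling rather than as an activator.

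The 7 genes Bmp2, Bmp3, Bmp4, Bmp5, Bmp6, Bmp7 and Gdf10 were chosen by name from the 46517 gene rows of a count table made from the urinary bladder of the mouse, and all 7 were found. The table held 1479 cells, each sorted into its own well and made into a Smart-seq2 library, a full-length cDNA protocol without molecular identifiers. Cells came from untreated adult male mice of 10 to 20 weeks on the C57BL6 background and were spread over 6 plates. They carried the reporter PdgfrbGFP, PdgfraGFP, Cspg4dsRED or Acta2GFP, in which a fluorescent protein is driven by the regulatory region of the named gene, or no reporter (C57BL6), and they were enriched for PDGF receptor signal and for absence of the endothelial protein CD31, so that epithelial, endothelial and blood cells were largely gated out. The labels assign each cell to 1 of 11 clusters, without naming cell types. By the markers given next, cluster 10 (8.45% of the cells) is taken as mural cells, the pericytes and smooth muscle cells of vessels, and cluster 5 (76 cells, 5.14%) as the Tnc-high, Cd34-low fibroblasts that the study placed just beneath the urothelium. The other clusters were compared as fibroblasts, cluster 4 included, although its 9 fibroblast markers summed to 9196 reads per 500000 beside 15958 to 20785 in the other fibroblast clusters and 1324 in cluster 10. Cluster 7 (15.5% of the cells) served as the second cluster for cell-level counts.

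Reads per cell ranged from 50276 to 1446059 (median 214893), with a median of 261652 in cluster 5, 234821 in cluster 7 and 130406 in cluster 10. Cluster 5 contained 15 cells from C57BL6, 3 from Cspg4dsRED, 22 from PdgfraGFP, 36 from PdgfrbGFP and 0 from Acta2GFP mice. In cluster 5 the matrix gene Tnc stood at 605 ± 430 reads per 500000 (SD between lines, n = 4 lines) against 0.903 ± 0.724 in cluster 7 (n = 5), whereas Cd34 stood at 89.5 ± 45.5 against 1343 ± 348. The 9 urothelial markers summed to 35.7 in cluster 5 (0 to 138.4 over lines) and 33.4 in cluster 7 (2.29 to 91.7), the 5 endothelial markers to 19.8 and 11.4, and the 5 immune markers to 13.1 and 1.95. The 9 mural markers summed to 578 in cluster 5 (435 to 753), 130 in cluster 7 (47.3 to 242.3) and 10595 in cluster 10 (8133 to 12820), and the part of these cell types in the results was not tested.

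The genes lie at separate loci of GRCm38, except that Bmp2 and Bmp7 share chromosome 2 and Bmp4 and Gdf10 share chromosome 14. Their spans are chr2:133552159-133562885 (Bmp2), chr5:98854415-98884396 (Bmp3), chr14:46383520-46390669 (Bmp4, minus strand), chr9:75775364-75900310 (Bmp5), chr13:38345107-38500302 (Bmp6), chr2:172868012-172940321 (Bmp7, minus strand) and chr14:33923587-33937983 (Gdf10). The 250 bases before the RefSeq transcription start were read for the 4 genes with an entry (Bmp4, Bmp5, Bmp6 and Gdf10; build GRCm38.p6), and 3 are shown because they belong to the ligand with most of its reads in cluster 5, the one called lower there and the one read in most fibroblasts. Capitals mark GGGCGG on either strand, so that a match on the other strand is printed as CCGCCC.
Bmp5 promoter, chr9:75775115-75775364, plus strand: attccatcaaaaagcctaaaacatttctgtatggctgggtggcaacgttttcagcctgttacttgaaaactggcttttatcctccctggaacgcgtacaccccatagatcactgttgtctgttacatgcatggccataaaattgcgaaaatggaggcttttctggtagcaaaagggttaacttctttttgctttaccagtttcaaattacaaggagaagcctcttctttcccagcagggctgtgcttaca
Gdf10 promoter, chr14:33923337-33923586, plus strand: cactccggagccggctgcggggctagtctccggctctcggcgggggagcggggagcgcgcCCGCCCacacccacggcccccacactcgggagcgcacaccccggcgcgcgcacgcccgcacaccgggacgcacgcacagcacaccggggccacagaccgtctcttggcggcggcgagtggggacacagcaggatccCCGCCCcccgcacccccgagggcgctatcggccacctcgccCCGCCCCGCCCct
Bmp4 promoter, chr14:46390670-46390919, minus strand: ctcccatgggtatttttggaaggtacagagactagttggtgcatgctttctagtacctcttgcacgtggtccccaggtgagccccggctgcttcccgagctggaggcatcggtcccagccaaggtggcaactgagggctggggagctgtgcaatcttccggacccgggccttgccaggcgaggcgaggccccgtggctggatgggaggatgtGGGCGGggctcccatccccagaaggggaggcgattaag

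The Bmp5 window was poor in G and C, at 42.8%, and held 4 CpG dinucleotides and 0 matches to GGGCGG. Only 17.9% of the 32851 mouse promoters in the table had a lower GC content. The Gdf10 window was at the other end, with 78.8% GC, 35 CpG and 4 matches, and 98.3% of promoters had a lower GC content. Bmp4 (63.2% GC, 11 CpG, 1 match) and Bmp6 (68.8% GC, 22 CpG, 1 match) lay between them, beside a median over all promoters of 52.4% GC and 6 CpG. GGGCGG was found in 32.7% of all promoters. The letters TATAAA (12.4% of promoters), CCAAT (33.8%) and GGCGCC (9.59%), each searched on both strands, were found in none of these 4 windows.

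Bmp4, a ligand of the Bmp2/4 subgroup, was the broadly expressed member. Its level was 458 ± 24.1 reads per 500000 in cluster 5 (SD between lines, n = 4), 436 ± 34.9 in cluster 1 (n = 4) and 331.3 ± 74.1 in cluster 7 (n = 5), and 194.85 to 286.4 in the fibroblast clusters 2, 3, 6, 8, 9 and 11. The lines of cluster 5 lay close together, with 479 in PdgfrbGFP, 472 in C57BL6, 457 in Cspg4dsRED and 425 in PdgfraGFP. Cluster 4 had 41.7 ± 58.96 (n = 2), and the mural cluster 10 had 10.3 ± 10.7 (n = 4). No neighbours in this order of clusters were separated in all lines.

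Bmp5, of the Bmp5/6/7 subgroup, was the member most bound to one cluster. In cluster 5 its level was 476.7 in PdgfraGFP, 334.7 in PdgfrbGFP, 214.9 in C57BL6 and 159.3 in Cspg4dsRED cells, or 296.4 ± 140.7 (n = 4). Cluster 7 followed with 92.99 in Acta2GFP, 21.7 in PdgfrbGFP, 18.1 in C57BL6, 1.08 in PdgfraGFP and 0.303 in Cspg4dsRED cells (26.8 ± 38.2, n = 5). Every line of cluster 5 stood above every line of cluster 7, and no other cluster exceeded 3.22. Summed over all cells, cluster 5 held 79.98% of the Bmp5 level with 5.14% of the cells.

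Bmp7, of the same subgroup as Bmp5, stood at 307.5 in Cspg4dsRED, 93.2 in PdgfrbGFP, 90.04 in PdgfraGFP and 63.7 in C57BL6 cells of cluster 5 (138.6 ± 113.4, n = 4). The highest of these values came from the line with 3 cells. Cluster 4 was next at 42.3 ± 29.8 (n = 2), where 38.7% of the Bmp7 reads came from a single cell, and cluster 7 had 3.91 ± 6.90 (n = 5). Clusters 5 and 4, and clusters 4 and 7, did not overlap in their lines. Of the summed Bmp7 level, 74.7% was in cluster 5.

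Bmp2, the closest relative of Bmp4, was highest in cluster 5 and in mural cells. Cluster 5 had 102.8 in Cspg4dsRED, 72.5 in PdgfraGFP, 65.9 in PdgfrbGFP and 52.1 in C57BL6 cells (73.3 ± 21.4, n = 4). The highest of these values came from 1 of 3 cells, and 5 of 15 C57BL6 cells had a read. In cluster 10 the lines fell apart, with 40.4 in Cspg4dsRED and 40.2 in PdgfrbGFP, 8.60 in Acta2GFP and 0 in the 3 cells of C57BL6 (22.3 ± 21.1, n = 4). Even so, all lines of cluster 5 were above all lines of cluster 10. The 2 clusters together held most of the Bmp2 signal, 33.2% in cluster 5 and 29.8% in cluster 10. Cluster 7 held 19.9% at a level of 6.58 ± 7.19 (n = 5), with 1 read each in Acta2GFP and Cspg4dsRED.

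Bmp3 was divided between clusters 5 and 7. Its level in cluster 5 was 152.3 in PdgfraGFP, 130.9 in C57BL6 and 114.001 in PdgfrbGFP, but the 3 cells of Cspg4dsRED had no read (99.3 ± 68.03, n = 4). Cluster 7 had 55.3 in PdgfrbGFP, 41.3 in Cspg4dsRED, 36.6 in C57BL6, 32.4 in PdgfraGFP and 11.5 in Acta2GFP (35.4 ± 15.9, n = 5), and cluster 1 had 21.3 ± 18.1 (n = 4). In cluster 7 the Cspg4dsRED and Acta2GFP values came from 1 cell each. The lines of clusters 5 and 7 thus overlapped through the Cspg4dsRED line. Because cluster 7 has more cells, it held 44.1% of the summed Bmp3 level and cluster 5 held 38.7%.

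Bmp6 was nearly missing from cluster 5, at 0.576 ± 0.833 (n = 4), in contrast to its subgroup partners Bmp5 and Bmp7. It was highest in cluster 3, where it stood at 45.1 in Acta2GFP, 42.3 in C57BL6, 43.6 in PdgfrbGFP and 16.8 in PdgfraGFP cells (36.9 ± 13.5, n = 4). Cluster 3 is the largest cluster, with 23.3% of the cells, and it held 44.4% of the summed Bmp6 level. The other clusters except 4 and 5 ranged from 10.7 to 26.5 without separating from their neighbours in all lines.

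Gdf10 was highest in cluster 8. There it stood at 1959 in PdgfraGFP, 1429 in Acta2GFP, 945 in Cspg4dsRED, 531 in PdgfrbGFP and 489 in C57BL6 cells (1071 ± 625.3, n = 5). Clusters 9 (534 ± 457, n = 2), 4 (352 ± 171.6, n = 2), 6 (243.8 ± 137.6, n = 5), 11 (243.7 ± 169.8, n = 3) and 3 (126.2 ± 31.7, n = 4) followed with overlapping lines. Below them came cluster 1 at 45.7 ± 12.3 (n = 4), whose lines were all under those of cluster 3. Cluster 5 had the lowest level of all 11 clusters, 3.56 ± 3.40 (n = 4).

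**Figure D1:**
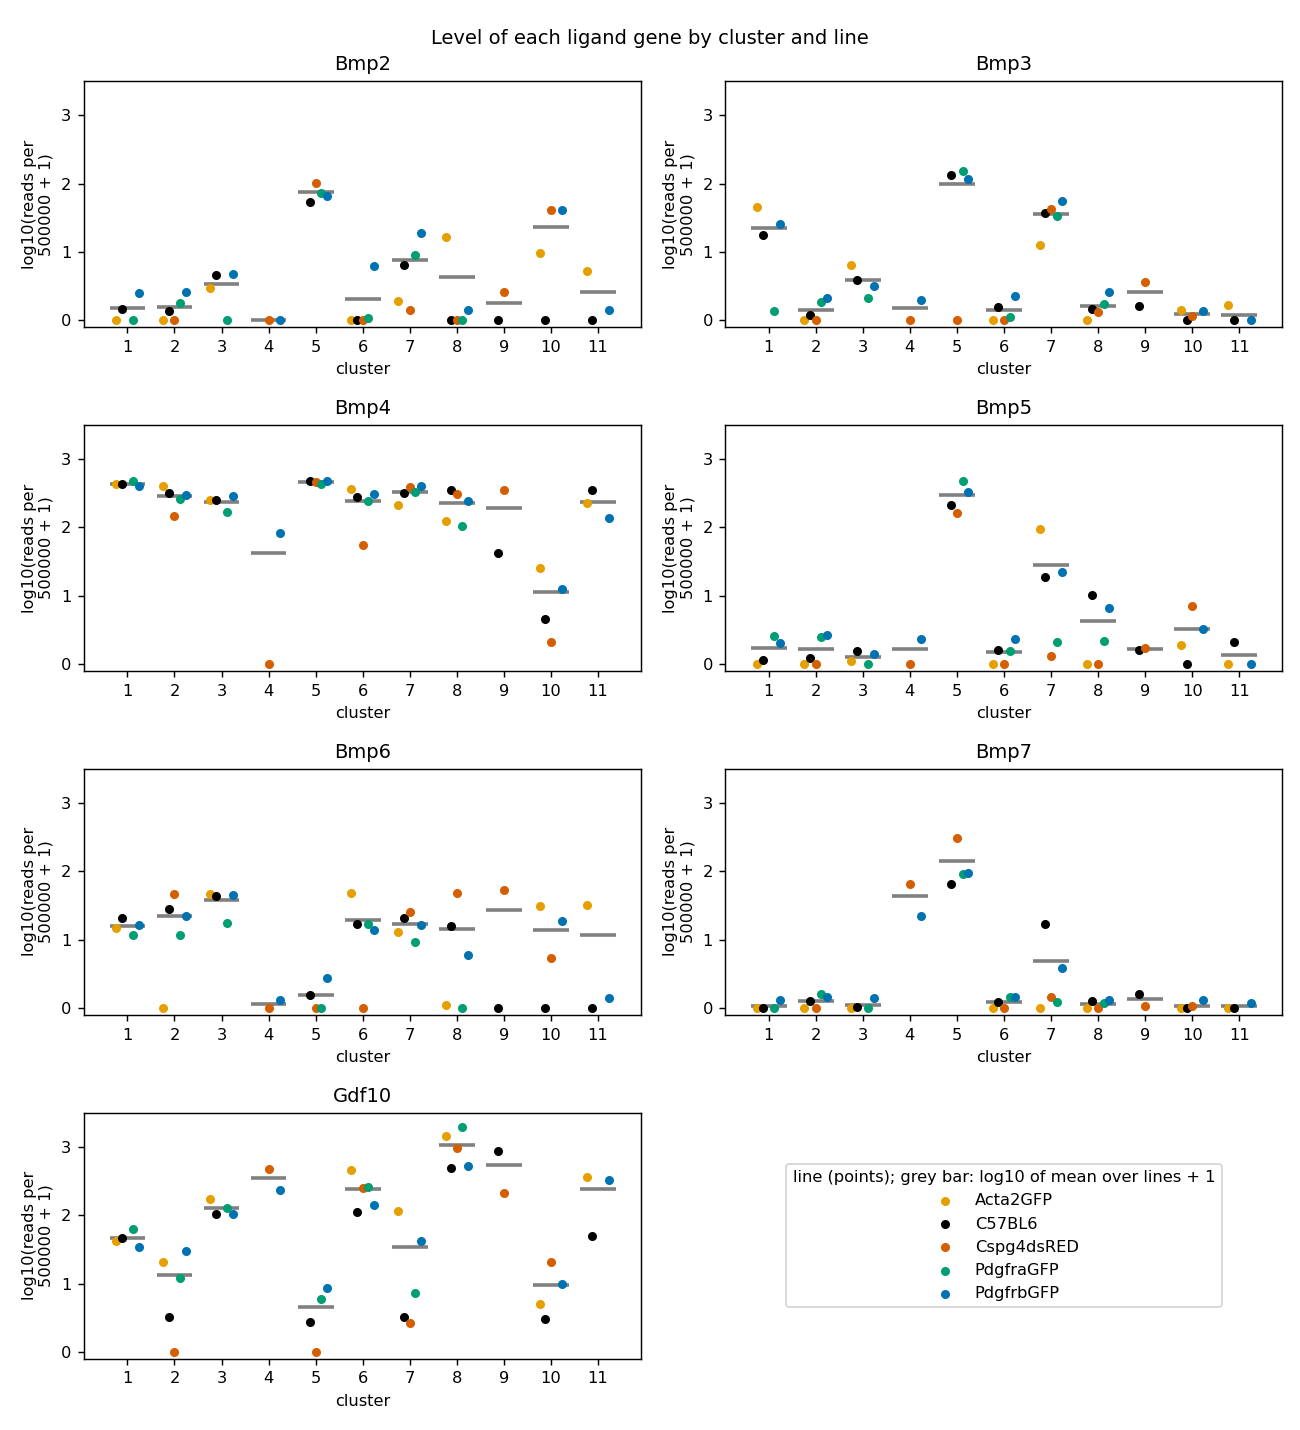
Level of each ligand gene in clusters 1 to 11, as log10 of reads per 500000 endogenous reads plus 1 (y axis), with 1 point for each line that has at least 3 cells of the cluster and a grey bar for the mean over lines. Bmp4 is high in every cluster but 4 and 10, Bmp5 and Bmp7 peak in cluster 5, and Gdf10 peaks in cluster 8 (1071) and is lowest in cluster 5 (3.56).

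Divided by exon length, so that genes can be set against each other, the 7 genes together reached 347 reads per 500000 per kb in cluster 5, 311.4 in cluster 8, 172.1 in cluster 7 and 16.5 in cluster 10. The sums of clusters 5 and 8 lay close together but came from different genes. In cluster 5, Bmp4 made up 58.8% of this sum, Bmp5 21.2%, Bmp7 9.94%, Bmp2 5.95%, Bmp3 3.87% and Gdf10 0.197%. In cluster 8, Gdf10 made up 65.98% and Bmp4 32.3%, and in cluster 7 Bmp4 alone made up 85.6%. Cluster 10 was the only cluster of these 4 led by Bmp2, with 38.1% of a small sum.

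To see how far these differences repeated over mouse lines, reads were summed per line and class and compared by the quasi-likelihood test of edgeR, with each line as its own block. Calls needed an adjusted p under 0.05 together with a log2 fold change of 2 or more in either direction, or 1 or more for cluster 7. The clusters had been made from the same values, so these tests are no independent evidence for the clusters. In cluster 5 against the other fibroblast clusters, 4 of the 7 ligand genes were called, 3 higher and 1 lower, beside 0.762% of all 16145 genes tested (0.297% higher, 0.465% lower). Bmp5 was higher by 6.85 ± 0.77 on the log2 scale (SE, adjusted p = 0.00111 by edgeR), Bmp7 by 6.13 ± 0.90 (adjusted p = 0.00626 by edgeR) and Bmp2 by 4.48 ± 0.86 (adjusted p = 0.0324 by edgeR), each in 4 of 4 lines. Gdf10 was lower, with a log2 fold change of -6.38 ± 0.84 (adjusted p = 0.00307 by edgeR), and in 4 of 4 lines.

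The Bmp2 call was lost without the PdgfraGFP line (adjusted p = 0.232 by edgeR) or without the PdgfrbGFP line (0.140). Bmp3 had a log2 fold change of 2.67 ± 1.13 (adjusted p = 0.330 by edgeR) and was higher in 3 of 4 lines, and it was called without the Cspg4dsRED line, where the log2 fold change was 3.53 (adjusted p = 0.00910 by edgeR). Bmp6, at -6.37 ± 1.52 and lower in 4 of 4 lines, missed the threshold (adjusted p = 0.0979 by edgeR). Bmp4 was at 0.55 ± 0.25 (adjusted p = 0.376 by edgeR), above the other fibroblasts in 4 of 4 lines but by a small margin. The median log2 fold change over all tested genes was -0.77, and setting it to 0 raised the share of called genes that were higher from 39.02% to 70.9%, while the same number of ligand genes, 4, was called.

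In cluster 7 against the other fibroblast clusters, 0 of the 7 ligand genes were called by edgeR, beside 0.407% of 16479 genes (0.109% higher, 0.297% lower). Of the called genes 26.9% were higher, or 70.5% with the median gene at 0, where the median had been -0.41. At an unadjusted p under 0.05 there were 2, beside 1676 of all genes, and DESeq2 called 2, beside 4.90% of all genes. These were the same pair with the opposite sign. Bmp3 was at 3.36 ± 0.79 on the log2 scale (adjusted p = 0.164 by edgeR, higher in 5 of 5 lines). Its cluster 7 reads came from 1 cell each in Acta2GFP (27 reads) and Cspg4dsRED (45 reads). Gdf10 was at -4.84 ± 1.00 (adjusted p = 0.108 by edgeR, lower in 5 of 5 lines). Bmp5 was at 2.40 ± 1.69 (adjusted p = 0.743 by edgeR), and its summed reads ranged from 0.601 CPM in the 11 Cspg4dsRED cells to 124.1 CPM in the 9 Acta2GFP cells.

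Set directly against cluster 7, cluster 5 again had 0 ligand genes called by edgeR, beside 0.271% of 13638 genes (0.147% higher, 0.125% lower). Of the called genes 54.1% were higher, or 70.7% with the median gene at 0, where it had been -0.31. Here 4 had an unadjusted p under 0.05, beside 1005 of all genes, and DESeq2 called 4, beside 4.40% of all genes. Bmp5 was higher by 6.33 ± 1.19 on the log2 scale (adjusted p = 0.0845 by edgeR) and Bmp7 by 6.31 ± 1.36 (adjusted p = 0.142 by edgeR), each in 4 of 4 lines. Bmp2 stood at 3.63 ± 1.09 (adjusted p = 0.419 by edgeR, 4 of 4 lines) and Bmp6 at -5.73 ± 1.60 (adjusted p = 0.349 by edgeR, 0 of 4 lines higher). For Bmp3 (0.87 ± 1.17), Bmp4 (0.35 ± 0.25) and Gdf10 (-1.47 ± 1.34) the difference was within its error range of 2 SE. Gdf10 was higher in 0 of 4 lines, with an adjusted p of 0.978 by edgeR. Only 4 lines have cells of both clusters.

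In the mural cluster 10 against the fibroblast clusters, 2 of the 7 ligand genes were called, both lower, beside 6.2% of 16092 genes in either direction (2.17% higher, 4.02% lower). Bmp4 had a log2 fold change of -5.56 ± 0.81 (adjusted p = 0.000141 by edgeR) and Gdf10 one of -4.92 ± 0.83 (adjusted p = 0.000694 by edgeR), each lower in 4 of 4 lines. Bmp7 (-5.78 ± 1.99, adjusted p = 0.0829 by edgeR) and Bmp3 (-5.12 ± 1.61, adjusted p = 0.0594 by edgeR) had fold changes as low but missed the threshold. The fibroblast class included clusters 5 and 7. Cluster 5 held 74.7% of the summed Bmp7 level, and for Bmp3 cluster 5 held 38.7% and cluster 7 held 44.1%. The mean Bmp7 level was 0.0904 in cluster 10 and 0.0662 to 0.340 in fibroblast clusters other than 4, 5 and 7. For Bmp3 it was 0.237 in cluster 10 and 0.219 to 2.94 in fibroblast clusters other than 1, 5 and 7. Bmp2 was not called, at 0.74 ± 1.70 (adjusted p = 0.873 by edgeR), and was higher in 2 of 4 lines. Of all called genes 35.1% were higher, or 69.02% with the median gene at 0, where it had been -0.93.

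**Figure D2:**
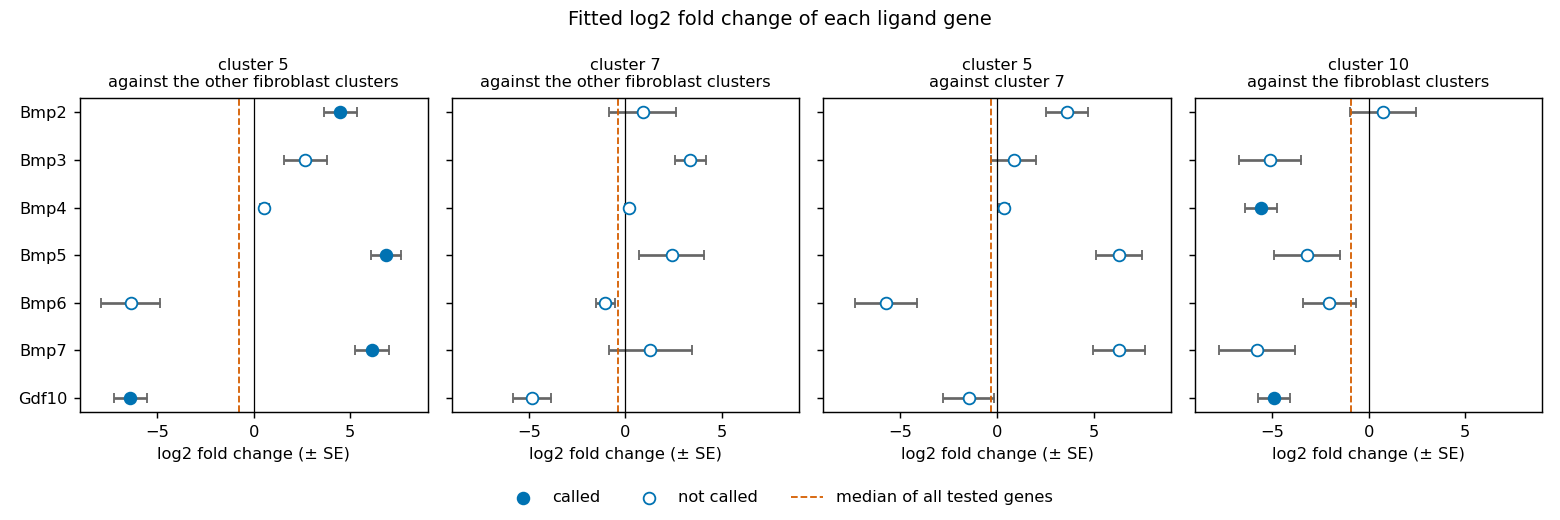
Fitted log2 fold change (x axis, ± SE) of the 7 ligand genes in 4 comparisons of clusters, with filled points for genes called by edgeR and a dashed line at the median of all tested genes. Bmp5, Bmp7 and Bmp2 are called higher and Gdf10 lower in cluster 5, and Bmp4 and Gdf10 are called lower in cluster 10.

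Among the fibroblast clusters 1, 2, 3, 4, 6, 8, 9 and 11, a single F test per gene asked whether the clusters differed at all. Of the 7 ligand genes only Gdf10 was called (adjusted p = 0.000227 by edgeR), beside 0.749% of 14410 genes. Bmp7, whose highest level among these was in cluster 4, had an adjusted p of 0.0964 by edgeR, and Bmp3 had 0.152 by edgeR. DESeq2 called 3 ligand genes in this comparison, beside 3.74% of all genes.

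Shares of cells with reads were counted after each cell had been thinned to 50000 reads. In cluster 5, Bmp4 was read in 73 of 76 cells (96.1%, exact 95% interval 88.9 to 99.2), Bmp5 in 65 (85.5%, 75.6 to 92.5), Bmp3 in 46 (60.5%, 48.6 to 71.6), Bmp2 in 40 (52.6%, 40.8 to 64.2) and Bmp7 in 35 (46.1%, 34.5 to 57.9). At least 10 reads were found for Bmp4 in 84.2% of cluster 5 cells, for Bmp5 in 69.7%, for Bmp3 in 44.7%, for Bmp7 in 34.2% and for Bmp2 in 27.6%. Most cells with a Bmp5, Bmp3 or Bmp7 read thus had more than a stray read. Gdf10 was different, with a read in 32.9% of cluster 5 cells and at least 10 reads in 0 of 76, which allows a share of up to 3.95%. The share of cells with a Gdf10 read was 27.2% in the mural cluster 10, and its interval (19.6 to 35.9) overlapped that of cluster 5 (22.5 to 44.6). By line, the share in cluster 5 was 52.8% in PdgfrbGFP, 22.7% in PdgfraGFP and 6.67% in C57BL6 cells, and 0 of 3 Cspg4dsRED cells had a read. The median depths were 261652 reads in cluster 5 and 130406 in cluster 10, and without thinning the shares were 75% and 44%.

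In cluster 7, a Bmp5 read was found in 48 cells (21.1%, 15.9 to 26.9), with at least 10 reads in 21. A Bmp3 read was found in 77 cells with at least 10 in 43, a Bmp2 read in 30 with at least 10 in 12, and a Bmp7 read in 11 with at least 10 in 3. For the remaining 1044 fibroblasts the share was 6.51% for Bmp5 with at least 10 reads in 4 cells, and 2.39% for Bmp7 with at least 10 reads in 3, and in cluster 10 it was 7.20% for Bmp5. Without thinning, a Bmp5 read was found in 89.5% of cluster 5 cells, 40.2% of cluster 7 cells, 22.5% of the remaining fibroblasts and 9.60% of cluster 10 cells. Most cells of cluster 7 thus had no Bmp5 read, and a minority had many.

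**Figure D3:**
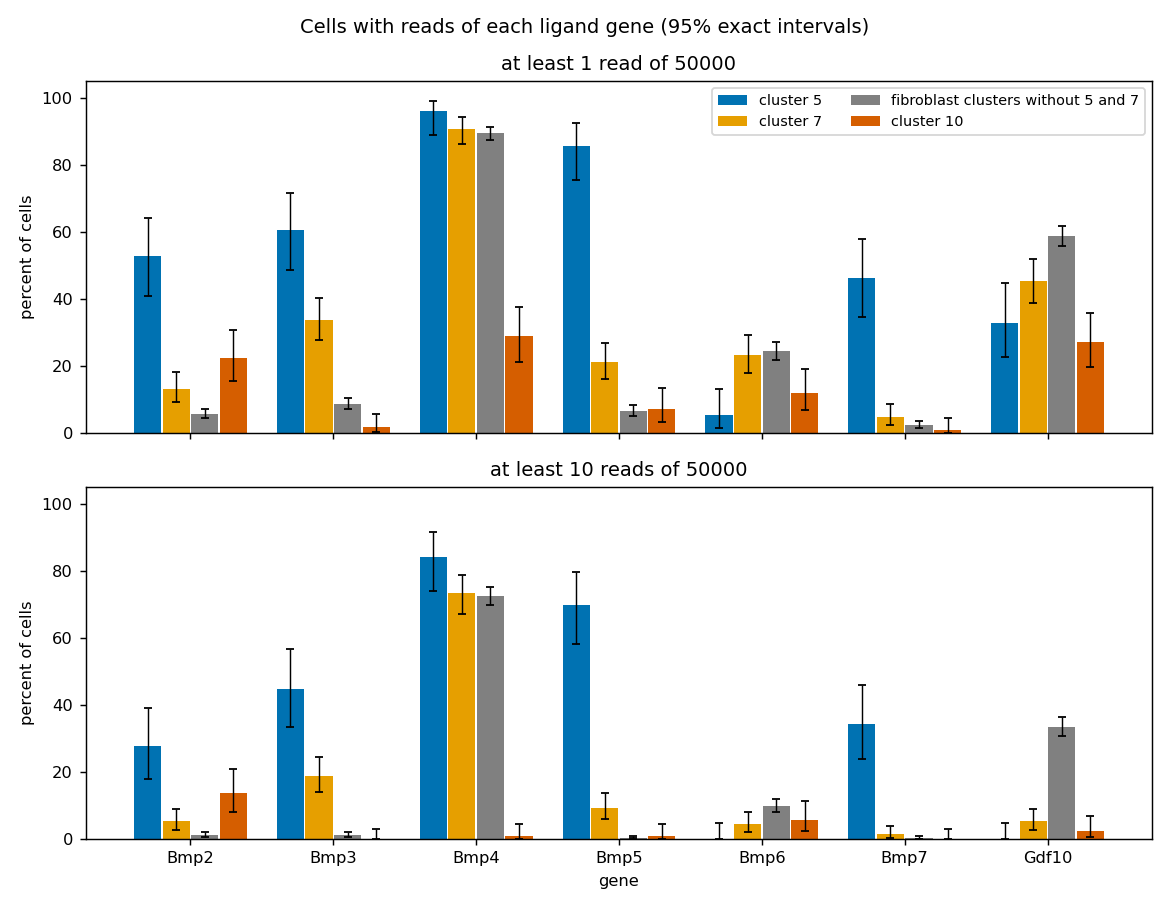
Percent of cells with at least 1 read (upper panel) and at least 10 reads (lower panel) of each ligand gene after thinning to 50000 reads, for cluster 5, cluster 7, the other fibroblasts and cluster 10, with exact 95% intervals that cover counting error only. Bmp5 reaches at least 10 reads in 69.7% of cluster 5 cells and in 9.21% of cluster 7 cells. Gdf10 reaches 10 reads in none of the 76 cells of cluster 5.

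Counted per cell, cluster 5 cells had reads of 1 to 6 of the 7 ligand genes, with a mean of 3.79 and a median of 4. The mean was 2.32 in cluster 7, 2.05 in cluster 3, 1.98 in cluster 8 and 1.00 in cluster 10. With at least 10 reads required, the mean was 2.61 in cluster 5, 1.37 in cluster 11, 1.30 in cluster 8, 1.23 in cluster 3, 1.18 in cluster 7 and 0.232 in cluster 10, so that cluster 7 no longer stood above clusters 3 and 8. At that level, at least 2 of the 7 genes were read in 85.5% of cluster 5 cells, 30.7% of cluster 7 cells and 30.5% of the remaining fibroblasts. For Bmp2, Bmp3, Bmp5 and Bmp7 taken alone, which were picked with their high levels in cluster 5 known, so that the contrast is largely set by the choice, 46 of 76 cluster 5 cells (60.5%) had at least 10 reads of at least 2 of them, compared with 8 cells (3.51%) in cluster 7 and 0 of the remaining 1044 fibroblasts, which allows a share of up to 0.287%. All 4 at this level were found in 2 of the cluster 5 cells.

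**Figure D4:**
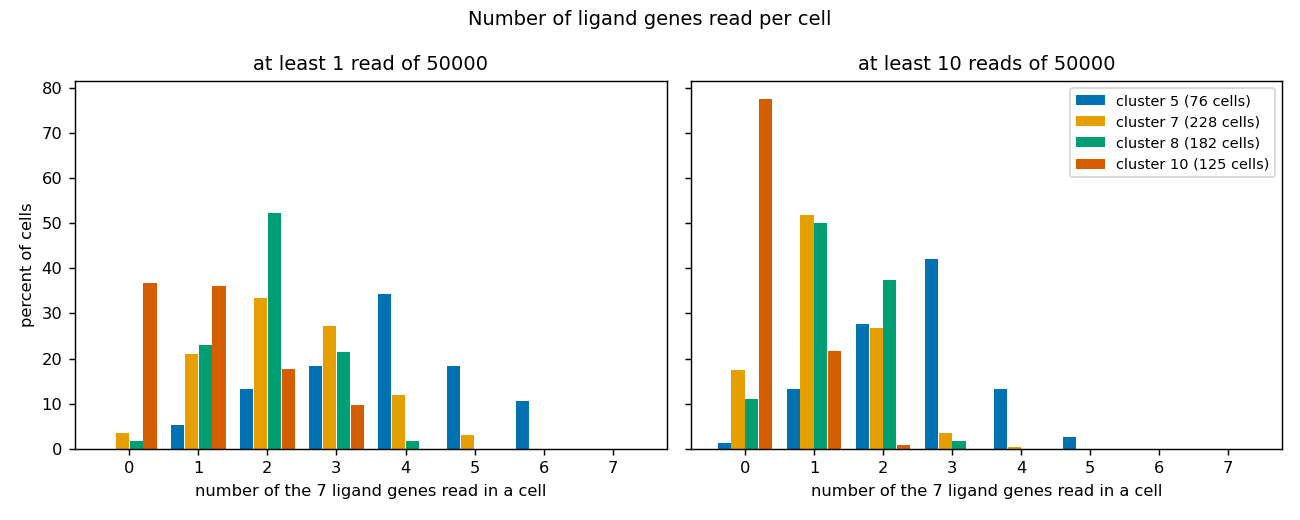
Percent of cells (y axis) by the number of the 7 ligand genes read in a cell (x axis), at a minimum of 1 read (left) and 10 reads (right) of 50000, for clusters 5, 7, 8 and 10. Cluster 5 is shifted to higher numbers, with a mean of 3.79 against 2.32 in cluster 7.

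The share of cells with both genes of a pair was set beside the product of their single shares. For pairs with Bmp4, which was read in nearly every cell, the 2 values have little room to differ. In cluster 5, Bmp5 and Bmp7 were read together in 44.7% of cells beside a product of 39.4%. Of the 35 cells with a Bmp7 read, 34 also had a Bmp5 read, while of the cells without a Bmp7 read 31 had a Bmp5 read and 10 did not. Bmp3 and Bmp7 met in 32.9% of cells beside a product of 27.9%. With at least 10 reads, Bmp2 and Bmp5 met in 14.5% of cells beside a product of 19.3%, so this pair went the other way. Over the 76 cells, Spearman's rho for the 21 pairs of ligand genes ranged from -0.19 to 0.29 with a median of 0.10, and over the cells of cluster 7 from -0.05 to 0.23 with a median of 0.09. These cells share 6 plates and differ in depth, and in such sparse counts correlations of this size are no finding.

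**Figure D5:**
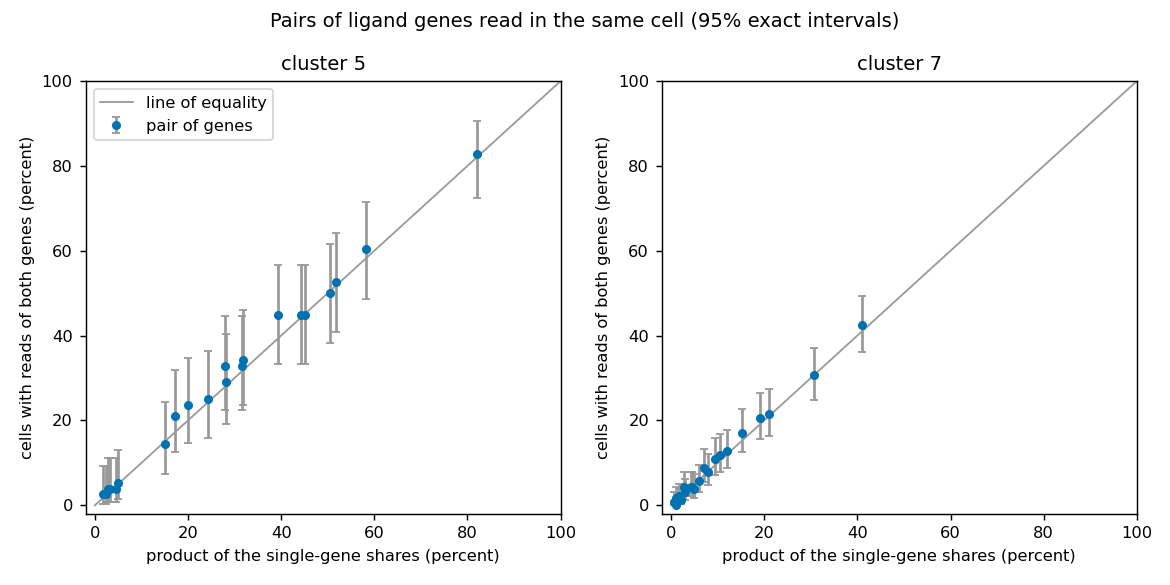
Percent of cells with reads of both genes of a pair (y axis, exact 95% interval) against the product of the shares of the single genes (x axis) for the 21 pairs of ligand genes in clusters 5 and 7. In cluster 5, Bmp5 with Bmp7 lies above the line of equality (44.7% beside 39.4%), and pairs with Bmp4 have little room to leave it.

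Reads were also counted by the position of wells on the plate; how index sequences were laid out on the plates is not given in the sources used here. Outside clusters 5 and 7, a Bmp5 read was found in 9.10% of 659 cells that had a cluster 5 cell in their row or column of the plate and in 3.33% of 510 cells that had none. The median depths of these cells were 259292 and 158324 reads, and the share with a Bmp5 read was higher for cells that shared a row or column with cluster 5 cells in 4 of 6 plates. For at least 10 Bmp5 reads the shares were 0.152% and 0.784%. The values for a Bmp7 read were 2.88% and 1.37%, for a Bmp2 read 7.59% and 7.25%, and for a Bmp3 read 10.02% and 5.10%. Within plates, the share for such cells was the higher one in 5 of 6 plates for Bmp3, 3 of 6 for Bmp7 and 1 of 6 for Bmp2. The part of plate position in the low reads of other clusters was not tested.

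Among the other genes of the pathway, none of the 11 receptors and co-receptors was called in cluster 5 by edgeR (2 at an unadjusted p under 0.05, 1 called by DESeq2, median log2 fold change -0.84 beside -0.77 over all genes). The same held for the 5 tested of 14 other BMP and GDF ligands (2 and 1, median -4.39), the 4 Smad transducers (0 and 0, median -1.40), the 10 target genes (2 and 2, median -1.95) and the 6 tested processing proteases (1 and 1, median -1.73). Over all genes tested, 2127 of 16145 had an unadjusted p under 0.05 and DESeq2 called 8.68%. Id3 stood at 291.1 ± 56.8 in cluster 5 (n = 4), 315.7 ± 130.8 in cluster 7 (n = 5) and 560 ± 84.6 in cluster 10 (n = 4). Its log2 fold change in cluster 5 was 0.19 ± 0.28, while those of Id1 (-0.77 ± 0.78), Id2 (-3.49 ± 1.28), Id4 (-2.56 ± 1.63) and the inhibitory Smad6 (-1.96 ± 1.70) and Smad7 (-1.61 ± 1.54) were at or below the median of all genes, with adjusted p from 0.246 to 0.868 by edgeR.

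In cluster 7, none of these pathway genes was called by edgeR, with 1 to 3 at an unadjusted p under 0.05 in each of the lists of other ligands (1), receptors (3), antagonists (3) and proteases (2) and 0 among Smads and targets. DESeq2 called 1 in each of these lists except the Smads, where it called 0. Over all genes tested in cluster 7, 1676 of 16479 had an unadjusted p under 0.05 and DESeq2 called 4.90%. Id1 (1.05 ± 0.50), Id2 (0.04 ± 0.71), Id3 (0.33 ± 0.15), Id4 (1.74 ± 0.78), Smad6 (-2.31 ± 1.82) and Smad7 (-0.38 ± 0.62) had adjusted p from 0.511 to 0.993 by edgeR for these log2 fold changes, and DESeq2 called Id4. Cluster 5 against cluster 7 likewise had 0 pathway genes called by edgeR, with 3 antagonists at an unadjusted p under 0.05 and 2 called by DESeq2, and 0 by either in the other lists. Over all genes in that comparison, 1005 of 13638 had an unadjusted p under 0.05 and DESeq2 called 4.40%. The log2 fold changes were -1.24 ± 0.77 for Id1, -2.84 ± 1.49 for Id2, 0.05 ± 0.31 for Id3, -3.57 ± 1.80 for Id4, 1.34 ± 1.72 for Smad6 and -0.84 ± 1.76 for Smad7.

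In cluster 10 the ligand genes were at their lowest sum. There, 1 of the 10 target genes was called by edgeR, beside 6.2% of all genes tested. At an unadjusted p under 0.05 there were 5, beside 3559 of 16092 genes, and DESeq2 called 5, beside 18.6% of all genes. The median log2 fold change of the target genes was 1.48 beside -0.93 over all genes. The call by edgeR was Id2, at 206.98 ± 53.4 reads per 500000 (n = 4) and 2.61 ± 0.67 on the log2 scale (adjusted p = 0.0241 by edgeR), a call that was lost without Cspg4dsRED (0.0781) or PdgfrbGFP (0.132). The other targets were not called by edgeR, among them Id1 (1.83 ± 0.92), Id3 (1.12 ± 0.38), Id4 (3.01 ± 1.33), Smad6 (-5.36 ± 1.74) and Smad7 (-0.95 ± 1.40), with adjusted p from 0.0673 to 0.783 by edgeR. Of these, DESeq2 called Id4 and Smad6. Lower calls by edgeR were made for 1 of 5 tested other ligands, 1 of 11 receptors, 2 of 11 antagonists and modulators, 2 of 5 proteases and 0 of 4 Smad genes, beside 4.02% of all genes called lower. In the same order of lists, 2, 4, 3, 2 and 2 genes had an unadjusted p under 0.05, and DESeq2 called 3, 3, 3, 2 and 2. These counts are in either direction, beside the 3559 of 16092 genes and the 18.6% given above. The genes called lower by edgeR are named here after their values were seen: the ligand gene Gdf6 (-6.90 on the log2 scale), whose call was lost when any 1 line was left out and with the median gene at 0, the receptor gene Acvrl1 (-4.33), the antagonist genes Chrd (-6.94) and Nbl1 (-3.13), and the protease genes Pcsk5 (-6.11) and Bmp1 (-4.45), of which Bmp1 lost its call without C57BL6 (-3.81, adjusted p = 0.0626 by edgeR).

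The genes whose levels over 43 sums of line and cluster resembled each ligand gene most were found by Pearson correlation of log2(CPM + 1) among 11576 genes, as a description. For Bmp5 they were Gm26903 (r = 0.98), Notum (0.90), which encodes a secreted enzyme that inactivates Wnt proteins, and Prss35 (0.88). Bmp7 was closest to Notumos (0.84), to Dkk2 (0.83), a secreted modulator of Wnt signalling, and to Notum (0.83). For Bmp2 they were Cck (0.79), the gene of the hormone cholecystokinin, Tnfrsf19 (0.79) and Myadml2os (0.73), and for Bmp3 Gata5os (0.81), Lypd1 (0.81) and the transcription factor gene Gata5 (0.79). Bmp4 was closest to Pamr1 (0.90), Hsd11b1 (0.87) and Fbln1 (0.84), Bmp6 to Rnf11 (0.74), Pigz (0.72) and Lynx1 (0.71), and Gdf10 to A830012C17Rik (0.82), Ifi207 (0.78) and the enkephalin gene Penk (0.78). The sums share lines and plates, and no p is given for that reason.

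Some of these values may hold reads of a neighbour, since the strand setting of the counting is not stated. Gm26903 lies antisense to Bmp5 and overlaps it by 2468 bases, with 81.7% of its 7850 reads in cluster 5. The counts do not show how many reads fell in the shared stretch, where the pair cannot be told apart. Bmp4 overlaps Gm15222 by 1764 bases, and that gene had only 728 reads in all beside 224878 of Bmp4. It also overlaps Gm15217 by 89 bases. Bmp6 overlaps the end of Txndc5, and Txndc5 had 295892 reads beside 16157 of Bmp6.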

How the data were processed

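The values were raw read counts per gene and cell, deposited by the authors as 1 table of 46517 gene rows, 92 spike-in rows and 1479 cells, with 0 columns left without a sample. Per the study's methods, reads were trimmed (trim galore), mapped to GRCm38 with TopHat2 and counted per gene with featureCounts. The strand setting of the counting was not given in the sources used here. Symbols came from GENCODE M21, which covered 46005 of the identifiers.

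The labels name no animal, so the 5 lines were taken as the unit. A line coincides with its sort and in part with its plate, so p-values measure the spread between lines only. No paired numbers exist in the labels, and the line entered as a block because its classes share the reporter and the sort. Reads were summed per line and class of at least 3 cells and tested with edgeR 4.0.16 in R 4.3.3 (TMM, filterByExpr, quasi-likelihood, Benjamini-Hochberg over all genes tested). Alternatives used DESeq2 1.42.0, other scalings, filters and sums. The share of called genes is given as a percent of genes tested. Levels give a gene's reads per 500000 non-spike-in reads of each cell, averaged per line and then over lines with at least 3 cells. For shares, cells were thinned at random to 50000 reads, which left out 6 cells. Intervals are exact (Clopper-Pearson, 95%) and the limit of a count of 0 is 3 counts, and both cover counting error only, as reads carry no molecular identifiers. Python 3.11.15, numpy 2.4.6, pandas 2.3.3, scipy 1.17.1 and matplotlib 3.10.9 were used, and the fits were tested on simulated data. No doublet caller was run.

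The genes named are the 7 ligand genes, called genes of the pathway lists (at most 3 in each direction per list in the first 3 comparisons), the Id genes, Smad6 and Smad7, the 3 genes most like each ligand gene (mean CPM of at least 5) and overlapping genes. The members and lists were chosen with earlier results of these data known. Promoter sequences are from RefSeq. One item of the pathway lists is not reported here.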

Additional observations from a re-analysis of the deposited data

Results flagged for a closer look

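A test for a single outlying line (Dixon's ratio at the 95% level) was applied to the levels of the 7 ligand genes in 56 groups of 4 or 5 lines, and 8 lines stood apart. The chance rate of about 1 in 20 holds for normal values of equal precision. These line means hold zeros and unequal cell numbers, so that rate cannot be applied here. The values below are reads per 500000, and the cause of each was not tested.

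Among the levels of cluster 5, Bmp7 in Cspg4dsRED stood at 307.5 from 3 cells, above the 63.7 to 93.2 of the other lines. In cluster 7, Bmp5 in Acta2GFP stood at 92.99 from 9 cells, above 0.303 to 21.7, and Bmp7 in C57BL6 at 16.1 from 36 cells, above 0 to 2.80. Bmp6 in cluster 3 was the only low value, at 16.8 in the 13 PdgfraGFP cells beside 42.3 to 45.1 in the other lines.

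The other values were at low levels. Bmp2 stood at 15.9 in the 11 Acta2GFP cells of cluster 8, beside 0 to 0.439, and at 5.18 in the 130 PdgfrbGFP cells of cluster 6, beside 0 to 0.0717. Bmp7 in PdgfrbGFP cells stood at 0.385 in cluster 3, beside 0 to 0.0371, and at 0.323 in cluster 1, beside 0 in every other line.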

How the results depend on the processing

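Among the refitted log2 fold changes of the ligand genes, 31 passed the threshold newly, 2 lost it (Bmp2 in cluster 5, given above), 4 turned and the rest kept their direction and their side of the threshold. The 4 that turned had not been called: with a line left out, Bmp2 in cluster 7 ran from -0.31 (without PdgfraGFP) to 1.96, Bmp7 in cluster 7 from -0.30 (without C57BL6) to 2.81, and Bmp2 in cluster 10 from -0.42 (without Cspg4dsRED; -0.22 without PdgfrbGFP) to 1.82. Bmp5, Bmp7 and Gdf10 in cluster 5, Bmp4 and Gdf10 in cluster 10 and Gdf10 in the F test stayed called in every setting run. Bmp6 in cluster 5, Bmp5 in cluster 5 against 7 and Bmp3 in cluster 10 were newly called in 5 settings each, and Gdf10 in cluster 7 in 4. The cause of these changes was not tested.

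Shares of tested genes called are given for the settings that moved the number of called genes by over 1.5 times, and as a range where a line was left out. The share called in cluster 5 was 0.697% without the low-count filter, 8.68% by DESeq2, 3.001% with sums per plate and line, 2.31% with cells thinned before summing and 0.559% to 1.31% with a line left out (1.31% without Cspg4dsRED). In cluster 7 it was 4.90% by DESeq2, 1.93% per plate and line, 0.783% thinned and 0.132% to 0.378% with a line left out (0.132% without C57BL6, 0.145% without PdgfraGFP, 0.176% without PdgfrbGFP). For cluster 5 against 7 it was 0.716% without the filter, 4.40% by DESeq2, 1.65% per plate and line, 0.861% thinned and 0.102% (without PdgfraGFP) to 0.545% (without Cspg4dsRED) with a line left out, with 0.132% without PdgfrbGFP and 0.188% without C57BL6. In cluster 10 it was 18.6% by DESeq2, 15.9% per plate and line and 2.88% (without Cspg4dsRED) to 5.79% with a line left out, with 3.52% without Acta2GFP and 3.39% without PdgfrbGFP. In the F test it was 1.40% without the filter, 3.74% by DESeq2, 3.09% per plate and line and 0.128% (without C57BL6) to 0.361% with a line left out, a loss of over 1.5 times for each of the 5 lines. Ligand genes called changed to 1, 2, 2 and 1 in cluster 7 (no filter, DESeq2, plate and line, thinned), to 2, 4, 2 and 1 in cluster 5 against 7 in the same order, to 5 and 4 in cluster 10 and to 3 and 3 in the F test (DESeq2, plate and line).

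Without the line as a replicate block, the share of genes called was 2.43% in cluster 5, 0.740% in cluster 5 against 7, 10.6% in cluster 10 and 5.26% in the F test, and the ligand genes called were 1 in cluster 5 against 7, 3 in cluster 10 and 3 in the F test. With at least 10 reads required, the mean number of ligand genes per cell fell to 2.61 in cluster 5 and 1.18 in cluster 7. Cluster 5 rests on 76 cells, 3 of them from Cspg4dsRED, and a level from so few cells is imprecise. The number of lines limits every test.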
